A study of Mus musculus with 7 samples.

Results

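Mitochondrial DNA codes for 8 tRNAs on its light strand, and these 8 RNAs are described here across the 7 libraries of the series. They were taken as the whole-transcript rows of 8 Ensembl IDs, which are 8 of the 3894 rows for whole RNAs in the table. All 8 were read in every library, and all passed the count filters of each comparison below. The deposited table does not pair transcript IDs with names, so the names follow the annotation of the IDs and could not be checked against the reads.

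The libraries hold RNA of the mouse macrophage line RAW264.7, or of the extracellular vesicles (EVs) that these cells shed into the medium. A hairpin either had no target (shNS) or was aimed at Dis3l2 (shDis3l2), a cytoplasmic 3′ to 5′ exoribonuclease that prefers RNAs with added uridines. Whole cells were read for shNS and shDis3l2. EVs were read for the same pair of lines and for shDis3l2 cells with 1 of 3 added constructs: an empty one (Vector), Dis3l2 that the hairpin cannot target (Dis3l2r), or Dis3l2 with the D389N change that makes it catalytically inactive (D389N). All cultures received 1 µg/mL doxycycline, and the Vector, Dis3l2r and D389N lines share the shDis3l2 hairpin. EVs were floated in a sucrose gradient and then treated with micrococcal nuclease, and rRNA depletion is stated for whole-cell RNA alone. There was 1 library for each group, so no group has a measure of its own spread, and the labels do not say whether a line was 1 clone. Levels of Dis3l2 and of macrophage markers were not analysed here, because their IDs could not be matched to names.

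Both strands of mitochondrial DNA are transcribed as long RNAs, from which most tRNAs are cut out at both ends before CCA is added to their 3′ end. The tRNAs then serve the ribosomes inside mitochondria, which make the few proteins coded there. Most mitochondrial genes lie on the heavy strand, and ND6 is the protein gene that shares the light strand with these 8 tRNAs.

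By position in the mouse mitochondrial genome (RefSeq, GRCm38.p6), the first gene of the set is mt-Tq (ENSMUST00000082394, the glutamine tRNA), at MT positions 3772 to 3842. It overlaps TrnI by 3 bases. Next come 4 genes that follow each other. They are mt-Ta (ENSMUST00000082398, alanine) at 5018 to 5086, mt-Tn (ENSMUST00000082399, asparagine) at 5089 to 5159, mt-Tc (ENSMUST00000082400, cysteine) at 5192 to 5257 and mt-Ty (ENSMUST00000082401, tyrosine) at 5260 to 5326. A gap of 32 bases separates mt-Tn from mt-Tc, and gaps of 2 bases separate the other neighbours. The serine tRNA mt-Ts1 (ENSMUST00000082403) lies at 6870 to 6938 and overlaps COX1 by 3 bases. The glutamate tRNA mt-Te (ENSMUST00000082420) lies at 14071 to 14139 and adjoins ND6, and the proline tRNA mt-Tp (ENSMUST00000082423) lies at 15356 to 15422 and adjoins TrnT. The genes are 66 to 71 bases long. Whether the counting used the strand is not given in the sources used here, so reads of the opposite strand over these genes cannot be told apart from reads of the tRNAs.

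Whole-RNA rows held 37041326 counts in shNS cells and 32342600 in shDis3l2 cells, against 13439408 to 25177102 in the EV libraries. The shNS cell library stood apart from the others in a pair of measures. Exon pieces of transcripts held 0.0375% of all its counts, against 0.713% to 1.23% elsewhere, and it had 484 transcript rows above 0, against 504 to 662. In the shDis3l2 cells, 1 transcript (ENSMUST00000083988) held 46.1% of whole-RNA counts, against 19.3% in shNS cells and 2.08% to 8.30% in EVs. A larger share of 1 RNA lowers the CPM (counts per 1000000 of the whole-RNA total) of every other RNA in that library.

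The 8 light-strand tRNAs made up a large part of the whole-RNA counts of control cells and a trace of the counts of EVs. Their sum held 13.17% of counts in shNS cells (exact binomial 95% interval 13.16% to 13.18%) and 2.88% in shDis3l2 cells (2.87% to 2.89%). In EVs of the shNS and shDis3l2 lines it held 0.0254% (0.0248% to 0.0261%) and 0.0378% (0.0369% to 0.0387%). Vector EVs held 0.0242% (0.0236% to 0.0249%), Dis3l2r EVs 0.0348% (0.0338% to 0.0358%) and D389N EVs 0.0294% (0.0287% to 0.0302%). These intervals, like all below, cover counting error only.

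Each tRNA showed the same order of libraries at its ends, with shNS cells highest, shDis3l2 cells next and all EVs far below. mt-Tq, which reads glutamine codons, stood at 23897 CPM in shNS cells and 5895 in shDis3l2 cells, and at 50.0 in shNS, 69.6 in shDis3l2, 40.5 in Vector, 62.8 in Dis3l2r and 56.1 CPM in D389N EVs. The lowest cell level of mt-Tq was thus far above its highest EV level. How many of all RNAs are split in this way was not counted. Lower levels in EVs were common, with 47.7% of RNAs called lower there in the edgeR test below (306 of 642).

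In the run of 4 adjoining genes, the first pair was high and the second pair low. The alanine tRNA mt-Ta stood at 16165 CPM in shNS cells and 3625 in shDis3l2 cells, and at 33.5 in shNS, 50.6 in shDis3l2, 32.2 in Vector, 48.0 in Dis3l2r and 36.4 CPM in D389N EVs. The asparagine tRNA mt-Tn stood at 23686 and 5170 CPM in the same cells, and at 46.2, 73.4, 48.3, 67.1 and 54.6 CPM in the EVs in that order. Both, like every other tRNA of the set, were highest among EVs in shDis3l2 and next in Dis3l2r, which by genotype lack and have active Dis3l2.

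The cysteine tRNA mt-Tc stood at 6509 CPM in shNS cells and 1314 in shDis3l2 cells, and at 12.9 in shNS, 19.0 in shDis3l2, 14.5 in Vector, 16.3 in Dis3l2r and 15.5 CPM in D389N EVs. Its neighbour mt-Ty, the tyrosine tRNA, stood at 4416 and 1130 CPM in cells, and at 8.07, 15.0, 9.39, 13.4 and 12.9 CPM in the EVs in that order. These low members had 180 to 365 counts in each EV library, and mt-Ty of shNS EVs had 191.

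Of the singly placed genes, mt-Ts1, the tRNA for the UCN serine codons, was the lowest in cells. It stood at 4320 CPM in shNS cells and 882 in shDis3l2 cells, and at 9.72 in shNS, 14.6 in shDis3l2, 8.14 in Vector, 11.6 in Dis3l2r and 10.4 CPM in D389N EVs. The glutamate tRNA mt-Te stood at 26417 and 5247 CPM in cells, and at 42.0, 60.8, 39.6, 58.3 and 45.5 CPM in the EVs in that order. The proline tRNA mt-Tp stood at 26318 and 5539 CPM in cells, and at 51.9, 74.9, 49.8, 70.4 and 62.8 CPM in the EVs. Across the 8 tRNAs, the lowest value in cells was 882 CPM and the highest in EVs 74.9 CPM.

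**Figure D1:**
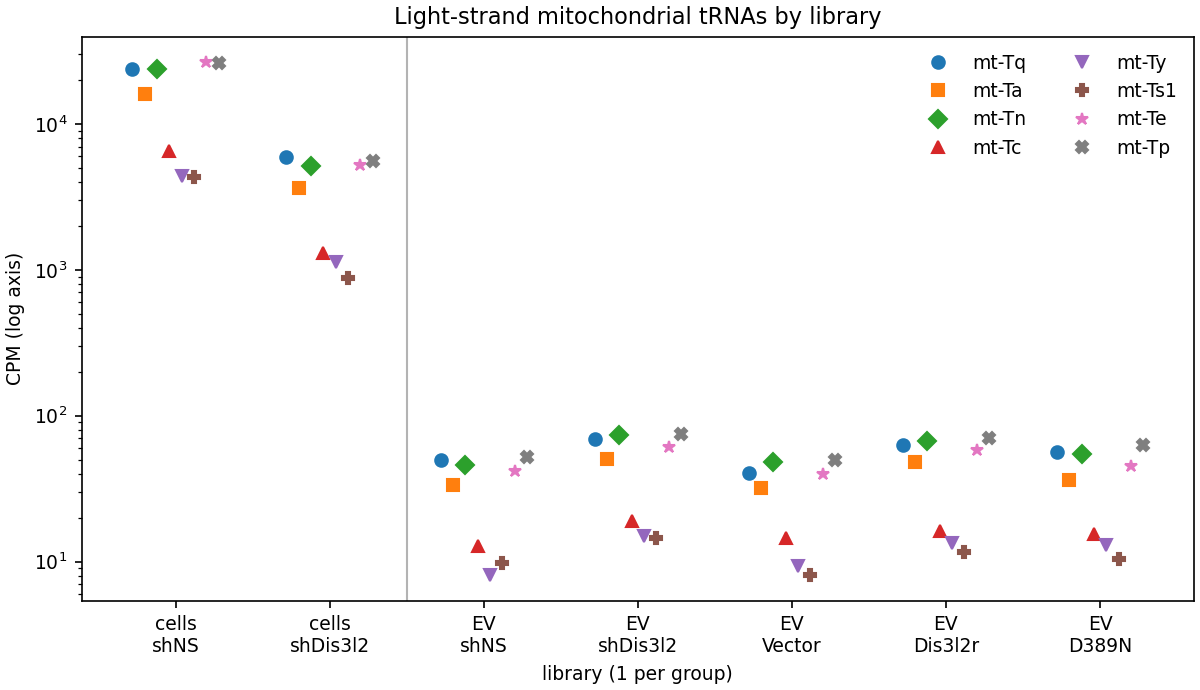
Levels of the 8 light-strand mitochondrial tRNAs in CPM (log axis) in each of the 7 libraries, 1 point per tRNA. Whole cells lie left of the grey line and EVs right of it, and the lowest cell point (mt-Ts1 in shDis3l2 cells, 882 CPM) lies above the highest EV point (mt-Tp in shDis3l2 EVs, 74.9 CPM).

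On the scale of CPM per kilobase of gene, which corrects for gene length alone, the set fell into a high and a low part in every library. How well each tRNA is read was not measured, so the scale gives levels of reads and not amounts of tRNA. mt-Tp, mt-Te, mt-Tq, mt-Tn and mt-Ta made the high part, and mt-Tc, mt-Ty and mt-Ts1 the low part. In shNS cells the level ran from 392811 CPM per kb for mt-Tp to 62604 for mt-Ts1, a 6.27-fold range. The break lay between mt-Ta at 234275 and mt-Tc at 98614 CPM per kb, which are both in the run of 4 adjoining genes.

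Order within the high part changed between libraries. mt-Tp led in shNS cells and in all 5 EV libraries, while mt-Tq led in shDis3l2 cells at 83028 CPM per kb, just above mt-Tp at 82674. mt-Te came right after mt-Tp in shNS cells and behind mt-Tn in every EV library. In shNS EVs the levels ran from 774 CPM per kb for mt-Tp to 120 for mt-Ty, and the range from highest to lowest was 5.28-fold to 6.43-fold over the 5 EV libraries. Each library gave 1 value, so neighbours in this order, such as mt-Tn and mt-Tq in EVs, could not be separated by a spread between replicates.

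The share of each tRNA in the summed counts of the 8 does not depend on how libraries are scaled, and it was much alike in cells and EVs. mt-Te departed most from this. It held 20.1% of the sum in shNS cells (95% interval 20.0% to 20.1%) and 18.2% in shDis3l2 cells (18.1% to 18.3%). Among EVs its share was 16.5% in shNS, 16.1% in shDis3l2, 16.3% in Vector, 16.7% in Dis3l2r and 15.5% in D389N, and the highest upper bound among these was 17.9%. The mt-Te intervals of cells and EVs therefore did not overlap.

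The shares of mt-Tq lay at 18.1% and 20.5% in shNS and shDis3l2 cells and at 16.7% to 19.7% in EVs, so cells and EVs overlapped. mt-Tn held 17.98% and 17.95% in cells and 18.2% to 19.9% in EVs. Its intervals overlapped those of cells in shNS EVs (17.2% to 19.2%) and D389N EVs (17.6% to 19.5%). The smallest member, mt-Ts1, held 3.28% and 3.06% in cells and 3.34% to 3.86% in EVs. Its intervals overlapped those of cells in Vector (2.92% to 3.84%), Dis3l2r (2.84% to 3.89%) and D389N EVs (3.09% to 4.03%). For the run of mt-Ta, mt-Tn, mt-Tc and mt-Ty together, the share was 38.5% (38.5% to 38.6%) and 39.0% (38.9% to 39.1%) in cells and 39.6% to 43.1% in EVs. The interval of shNS EVs (38.3% to 40.8%) held both cell values. Those of shDis3l2, Vector, Dis3l2r and D389N EVs lay above both cell intervals, with the lowest bound at 39.3% in D389N.

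**Figure D2:**
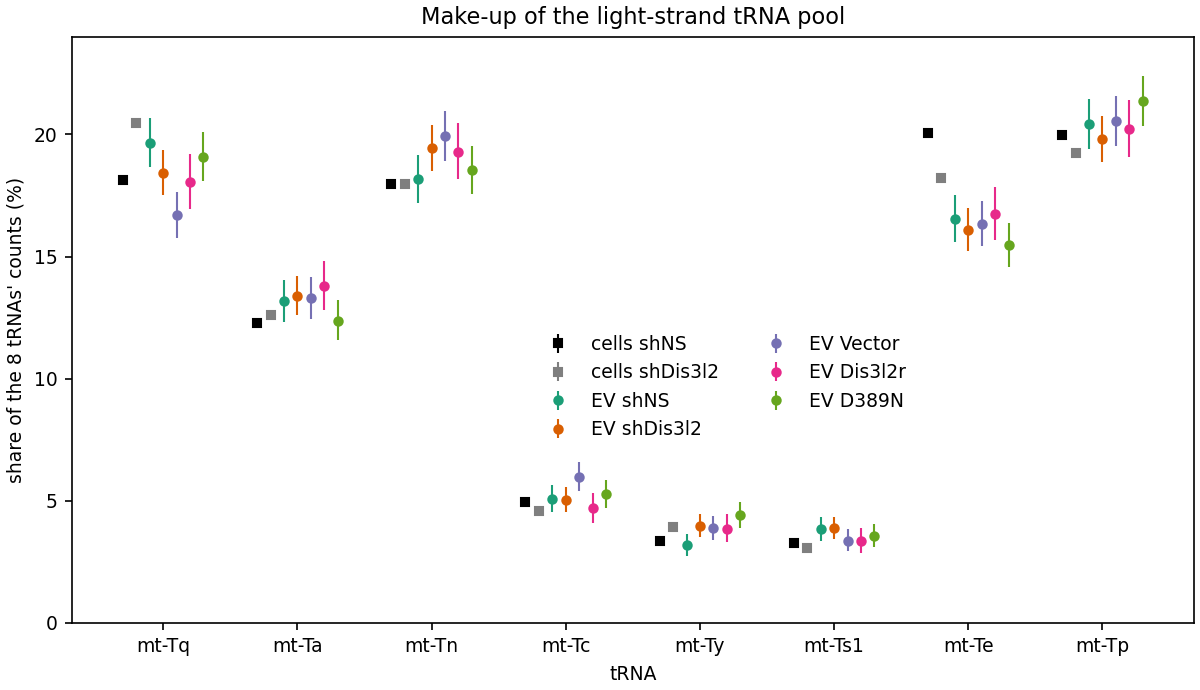
Share of each tRNA in the summed counts of the 8 tRNAs (percent, y axis) in 7 libraries, with squares for whole cells, circles for EVs and bars for exact binomial 95% intervals. The mt-Te squares, at 20.1% and 18.2%, stand above its EV circles, at 15.5% to 16.7%, while mt-Tq, mt-Ta, mt-Tc, mt-Ty and mt-Tp overlap between cells and EVs.

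The first comparison asked how these RNAs differ between EVs and whole cells. Vector, Dis3l2r and D389N EVs have no library of the cells that release them. Nuclease treatment of EVs, and rRNA depletion stated for whole cells alone, go with the compartment. Their parts in any difference between EVs and cells, here and within a line, cannot be told apart from it. All 8 tRNAs were lower in EVs in edgeR's quasi-likelihood test over the 5 EV and 2 whole-cell libraries, at an adjusted p under 0.05. The same call was made for 47.7% of the RNAs tested (306 of 642). Log2 fold changes ran from -8.02 for mt-Te (SE 0.546, edgeR adjusted p = 4.5e-08) to -7.61 for mt-Ts1 (SE 0.565, adjusted p = 7.74e-08). mt-Tq stood at -7.81, mt-Tp at -7.73, mt-Tc at -7.71, and mt-Tn and mt-Ty both at -7.70, with mt-Ta at -7.67. The median of the 8 was -7.70, against -1.33 over all RNAs tested. The libraries of a compartment were different genotypes and not replicates, so these p-values measure the spread between genotypes, with Dis3l2 class as a covariate. Without the shNS cell library the median of the 8 was -6.49, and without the shDis3l2 cell library -8.72, with 8 of 8 lower in both fits, in which the remaining cell library was taken to vary like the EVs. Scaled to totals of named nuclear-coded tRNAs, which fill most of the EV libraries, the median was -10.34 and all RNAs split into 42 higher and 395 lower, against 200 and 306.

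Within the control line, the 8 tRNAs together were 518-fold lower in EVs than in cells, a log2 ratio of -9.02 (95% interval -9.05 to -8.98). Single members ran from -9.30 (-9.39 to -9.21) for mt-Te to -8.80 (-8.99 to -8.61) for mt-Ts1. By the rule of size (at least 100 counts, at least 2-fold, interval excluding 1) 8 of 8 were lower, and so were 59.5% of the RNAs measured. The median of the 8 was -8.98, against -3.28 over all RNAs. Among the 224 RNAs with at least 10000 counts in shNS cells, 1 had no counts in shNS EVs. mt-Te had the lowest ratio of EV to cell of the other 223, and the 8 tRNAs stood between rank 2 and rank 17 from the bottom of the 224. The median over these 224 RNAs was -5.26. Of the 9 other RNAs that lay below mt-Ts1, 5 were rows whose transcript IDs lie among those of the 8 tRNAs.

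In the knockdown line the gap was smaller. EVs of shDis3l2 cells held 76.2-fold less of the sum than the cells, a log2 ratio of -6.25 (-6.29 to -6.22). mt-Te was again lowest at -6.43 (-6.52 to -6.35) and mt-Ts1 highest at -5.92 (-6.10 to -5.74). All 8 were lower by the rule of size, as were 58.1% of the RNAs measured, with medians of -6.19 for the 8 and -2.86 over all RNAs. Here the 8 did not stand at the bottom, with ranks 57 to 88 among 186 RNAs with at least 10000 counts in the cells. The median over these 186 RNAs was -5.65, close to that of the 8. Counts in the EVs were close between lines, 6017 for shNS and 6963 for shDis3l2, while the cells held 4879352 and 931530.

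**Figure D3:**
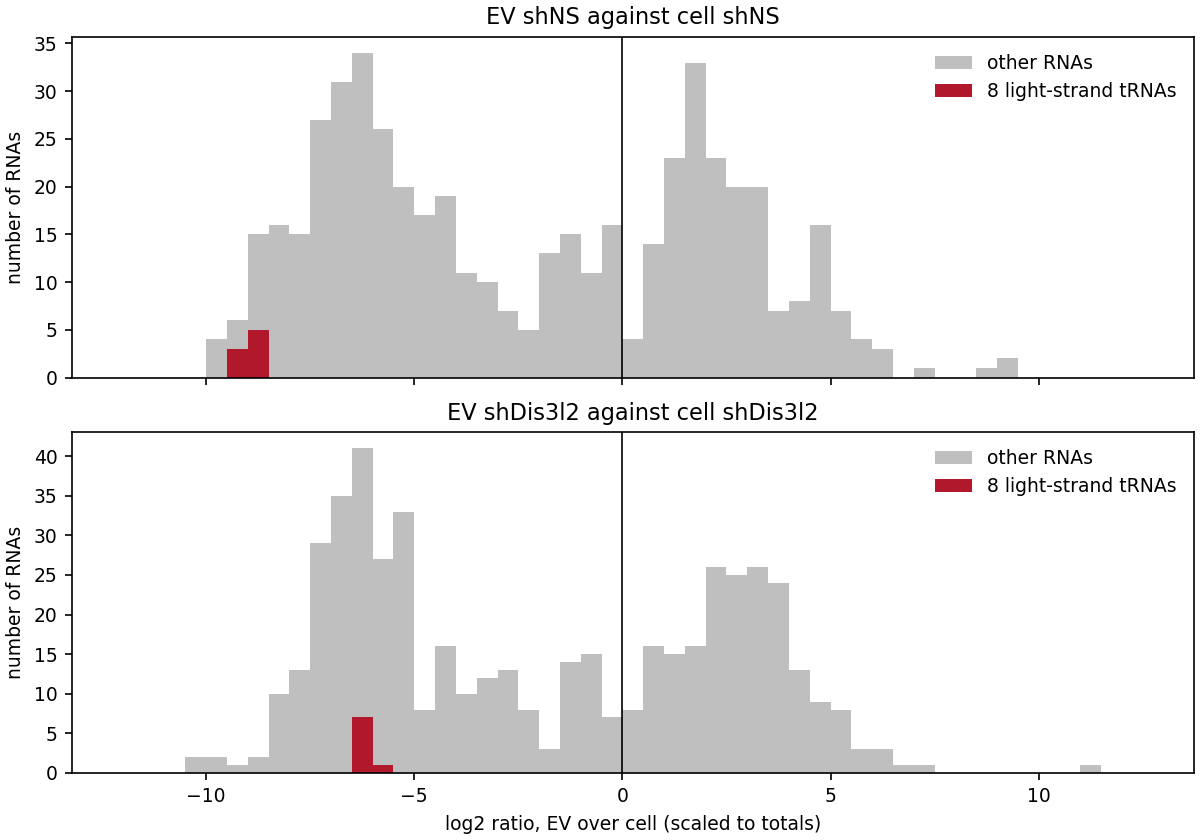
Histograms of the log2 ratio of EV to cell (x axis, scaled to whole-RNA totals) over the RNAs with at least 100 counts, with the number of RNAs on the y axis (19 and 21 RNAs at 0 in 1 library of the pair have no ratio and are not drawn). The upper panel shows the shNS line and the lower panel the shDis3l2 line, and the 8 light-strand tRNAs, in red in front of the grey bars of the other RNAs, lie between -9.30 and -8.80 above and between -6.43 and -5.92 below.

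Nuclear-coded tRNAs for the same amino acids mostly lay on the other side of 0. Summed over their rows, the log2 ratio of shNS EVs to shNS cells was 2.55 for glutamine, 0.20 for alanine, 1.88 for asparagine, 1.88 for cysteine, 2.30 for serine, 2.41 for glutamate and 2.54 for proline. Tyrosine, at -0.66, was the exception. The mitochondrial tRNA of each of these amino acids lay at least as low as -8.80 in the same pair of libraries. These directions depend on the scaling, which shifts all RNAs of the pair alike: 1.10 with DESeq2 size factors puts tyrosine above 0, -0.26 with TMM puts alanine below 0, and -2.45 with totals of named tRNAs puts all but glutamine and proline below 0. The 8 mitochondrial tRNAs lay below 0 under each of the 6 scalings. In the knockdown line tyrosine stood at -0.68, and the other 7 sums lay between 0.54 and 3.60. With 1 library a side, the difference between the nuclear-coded and the mitochondrial tRNAs was not tested within a line.

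The table also holds 10 other transcripts whose IDs lie within the range of the 8, with RNA types that are not given. They followed the 8 tRNAs closely: their median log2 ratio of EV to cell was -8.81 in shNS and -6.25 in shDis3l2. Of the counts of all 18 rows, the 8 tRNAs held 53.8% in shNS cells (53.76% to 53.83%), 50.9% in shDis3l2 cells (50.9% to 51.0%) and 49.6% to 50.6% in EVs. Over the 7 libraries, likeness to the sum of the 8 was measured as the root mean square difference of centred log2 CPM over 366 RNAs with at least 20 counts in every library. It was 0.0435 to 0.147 for the 8 themselves, which are part of that sum, and 0.083 to 0.214 for the 10 other rows. The last of the 8 stood at rank 15 and the last of the 10 at rank 22. An unnamed transcript outside these 18 rows stood at rank 6, so the profile was not particular to the 18. The ID range was set by the 8 tRNAs alone, and whether that transcript is also mitochondrial was not checked.

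Among RNAs that the table names, the nearest were 5 nuclear-coded tRNAs, at much larger distances. tRNA-Tyr-GTA-4-1 was nearest at 2.00 (rank 143), followed by tRNA-Leu-CAA-4-1 at 2.14, tRNA-Tyr-GTA-3-2 at 2.26, tRNA-Tyr-GTA-1-4 at 2.34 and tRNA-Leu-CAA-3-1 at 2.77. tRNA-Tyr-GTA-4-1 stood at 46.3 CPM in shNS cells, 40.2 in shDis3l2 cells and 1.90 to 5.27 CPM in EVs. Its fall from cells to EVs had the direction of the mitochondrial set, while its levels in the 2 cell libraries lay closer to each other than those of the set.

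The next comparison asked how the tRNAs differ in cells with the hairpin aimed at Dis3l2, whose level was not analysed. In shDis3l2 cells the 8 together were 3.80-fold lower than in shNS cells, a log2 ratio of -1.93 (-1.93 to -1.92) with TMM scaling (trimmed mean of M values). mt-Te stood lowest at -2.07, followed by mt-Tc at -2.04, mt-Ts1 at -2.03, mt-Tp at -1.98, mt-Tn at -1.93, mt-Ta at -1.89, mt-Tq at -1.75 and mt-Ty at -1.70. All 8 were lower by the rule of size, as were 24.0% of the 513 RNAs measured. The median was -1.96 for the 8 and -0.17 over all RNAs. With 1 library a side there is no test, and in bulk RNA fewer cells that hold an RNA and less of it per cell cannot be told apart.

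Scaling bears on this value, because ENSMUST00000083988 rose from 19.3% to 46.1% of counts between the same libraries. Scaled without that transcript, the 8 tRNAs lay between -1.75 and -1.39, and all RNAs split into 108 higher and 74 lower, against 60 and 123 with TMM. The median over all RNAs shifted by 0.31 with that scaling and by -0.27 with whole-RNA totals. The 8 tRNAs were below 0 in this pair under each of the 6 scalings run. The shNS cell library is the one with few exon-piece counts, and the part of that in the difference was not tested. The 10 other rows in the ID range had a median of -1.71. Nuclear-coded tRNAs for the same amino acids, scaled to whole-RNA totals, lay between -1.27 for proline and 0.14 for tyrosine. On that scale the sum of the 8 mitochondrial tRNAs stood at -2.19.

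EVs showed no such fall. In shDis3l2 EVs the sum was 1.59-fold higher than in shNS EVs, a log2 ratio of 0.67 (0.62 to 0.72). mt-Ty had the highest ratio, 0.99 (0.71 to 1.26), and mt-Tq the lowest, 0.57 (0.46 to 0.69), and mt-Tn stood at 0.76 (0.65 to 0.88). None of the 8 passed the rule of size, which 11.2% of the 411 RNAs measured did, because no ratio reached 2-fold. Medians were 0.67 for the 8 and 0.05 over all RNAs.

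A pair of EV libraries that are both classed as without active Dis3l2 differed by nearly as much. Vector EVs held less of the sum than shDis3l2 EVs, at -0.61 (-0.66 to -0.56), with members from -0.81 (-1.08 to -0.54) for mt-Ts1 to -0.35 (-0.57 to -0.14) for mt-Tc. In that pair 0 of 8 passed the rule of size, against 23.9% of the RNAs measured. Both pairs share the shDis3l2 EV library, in which the sum was highest.

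Re-expression and the inactive protein were each compared with Vector EVs, and so share that library. With Dis3l2r the sum stood at 0.45 (0.40 to 0.51). mt-Tq was highest at 0.56 (0.43 to 0.70), and mt-Tc stood at 0.10 (-0.15 to 0.34), an interval that holds 0, and at -0.12 with DESeq2 size factors. None of the 8 passed the rule of size, against 32.1% of the RNAs measured.

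With D389N the sum stood at 0.53 (0.48 to 0.59). mt-Tq was again highest at 0.73 (0.60 to 0.85), next to mt-Ty at 0.72 (0.46 to 0.98), and mt-Tc again lowest at 0.35 (0.13 to 0.57). None of the 8 passed the rule of size in this pair either, against 23.2% of the RNAs measured. Medians of the 8 were 0.44 with Dis3l2r and 0.52 with D389N, against 0.08 over all RNAs in each pair.

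**Figure D4:**
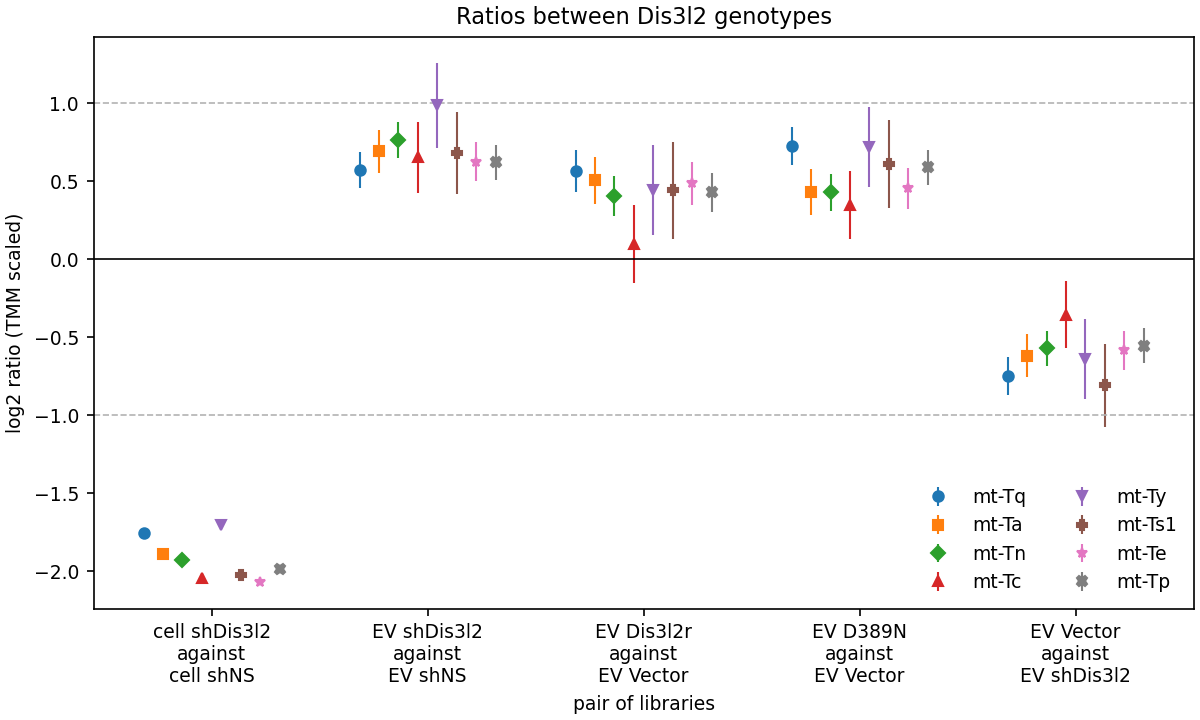
Log2 ratios of the 8 tRNAs in 5 pairs of libraries (x axis) with TMM scaling, bars for 95% intervals of counting error and dashed lines at a 2-fold difference. The cell pair lies between -2.07 and -1.70, whereas every point of the EV pairs lies inside the dashed lines, with the Vector to shDis3l2 pair below 0.

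Over the 5 EV libraries, Dis3l2 class gave no call among the 8 tRNAs. In CPM their sum stood at 242 in Vector, 254 in shNS, 294 in D389N, 348 in Dis3l2r and 378 in shDis3l2, so the libraries with active Dis3l2 (shNS and Dis3l2r) lay among those classed as without it. edgeR's quasi-likelihood test called 0 of 8, against 0.178% of RNAs (1 of 561), with log2 fold changes of 0.19 for mt-Te to 0.46 for mt-Ty and adjusted p from 0.817 to 0.881. The sign changed with the scaling: with whole-RNA totals the 8 lay between -0.04 and 0.21, and without ENSMUST00000083988 between -0.11 and 0.15. At an unadjusted p under 0.05 there were 34 RNAs and 0 of the 8, and DESeq2 called 1 RNA and 0 of the 8.

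Whether the difference between EVs and cells depends on Dis3l2 class was tested as an interaction over all 7 libraries, a test added after the data were seen. The interaction estimates were 1.99 for mt-Tq to 2.47 for mt-Tc on the log2 scale, which means a smaller gap between EVs and cells without active Dis3l2. edgeR called 0 of 8, with adjusted p from 0.318 to 0.382, and 0% of the RNAs tested (0 of 732). At an unadjusted p under 0.05 there were 67 RNAs, and 8 of the 8 tRNAs were among them. With TMM there were 66 RNAs and 7 of the 8. Without ENSMUST00000083988 there were 69 RNAs and 4 of the 8, and with totals of named nuclear-coded tRNAs 55 RNAs and 4 of the 8. DESeq2 called 1 RNA and 0 of the 8, whose smallest adjusted p was 0.0972. Each class has 1 cell library in this fit, so the estimates rest on the same shNS and shDis3l2 cells as the pairs above.

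Across the EV libraries the counts of the 8 varied less than the depth. Their sum lay between 4675 and 6963 counts, a 1.49-fold range, while whole-RNA totals spanned 1.87-fold and the summed CPM 1.56-fold. Set against the shNS cell library, the summed counts of an EV library, not scaled to depth, came to 0.0958% to 0.143% of those of the cells. Scaled to depth, the sum was 242 to 378 CPM in EVs against 131727 CPM in shNS cells.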

How the data were processed

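The authors deposited 1 table of estimated counts (expected counts, not whole numbers) for 7 libraries, without scaling of 1 library to another. Novoalign, Salmon, UMI-tools and cutadapt are listed, per the submitters' processing notes, with the builds mm10 and GRCm38. The sources used here do not give their versions, the strand setting or whether reads were deduplicated. Of 580839 rows, 3894 stand for whole RNAs and gave the totals. The 8 rows also stand as UTR pieces with 93.9% to 100.4% of their counts, which were not added.

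Counts were rounded for intervals and fits. Single libraries were compared as log2 ratios with exact conditional binomial 95% intervals, with TMM scaling for genotypes and whole-RNA totals for EVs against cells. edgeR 4.0.16 quasi-likelihood tests (filterByExpr, Benjamini-Hochberg adjustment over all rows tested, threshold 0.05) compared 5 EV with 2 cell libraries with Dis3l2 class as covariate (totals, 4 residual degrees of freedom) and the EV classes (TMM, 3). The class was assigned from the genotype: shNS and Dis3l2r with active Dis3l2, shDis3l2, Vector and D389N without. Shares have exact (Clopper-Pearson) intervals. Software was DESeq2 1.42.0 under R 4.3.3, and scipy 1.17.1, pandas 2.3.3, numpy 2.4.6 and matplotlib 3.10.9 under Python 3.11.15. CPM is the count scaled to the whole-RNA total. Alternatives were other scalings, DESeq2, count minimums of 20 and 500, no filter, and leaving out each library. Fits were tested on simulated data.

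The rule for names covered all 8 tRNAs in each comparison, where those not named lie within the range given, and the 5 named RNAs most like their sum. The 8 and all lists were chosen with earlier results of these data known. Lists of heavy-strand tRNAs, mitochondrial rRNAs and mRNAs, macrophage and other cell markers and Dis3l2 could not be matched to IDs and have no result. No sequence of the 8 tRNAs was used here. Positions were matched by symbol to RefSeq for 8 of 8 genes.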

Additional observations from a re-analysis of the deposited data

Results flagged for a closer look

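The summed 8 tRNAs differed between shDis3l2 and shNS in opposite directions in the 2 compartments, which is why the values are given again. The log2 ratio was -1.93 in whole cells and 0.67 in EVs, and all 8 tRNAs were below 0 in cells and above 0 in EVs. Medians over all RNAs had the same signs with TMM, at -0.17 in cells and 0.05 in EVs, but these signs depended on the scaling. The EV median was -0.05 with whole-RNA totals, and the cell median was 0.14 without the most abundant cell transcript. The 10 other rows in the ID range had medians of -1.71 and 0.71, so the pattern was not particular to the 8. The share of all RNAs with such opposite directions was not counted. With 1 library for each line and compartment the difference between these ratios was not tested. The related interaction of compartment and Dis3l2 class over 7 libraries gave edgeR adjusted p from 0.318 to 0.382.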

How the results depend on the processing

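Numbers of tRNAs called or past the rule of size were the same under every alternative run: 8 of 8 lower in EVs than in cells, 8 of 8 lower in shDis3l2 cells, and none in the comparisons of EVs and in the interaction. With a minimum of 500 counts, 6 of the 8 were measured in the shDis3l2 against shNS and Dis3l2r against Vector pairs of EVs and 7 in the D389N and Vector against shDis3l2 pairs. No summed ratio changed direction. Sizes moved with the scaling by more than counting error. With whole-RNA totals the summed log2 ratio was -2.19 for the cell pair, 0.57 for shDis3l2 against shNS EVs, 0.52 for Dis3l2r and 0.28 for D389N against Vector. With DESeq2 size factors it was -7.92 for EVs against cells in shNS, -5.53 in shDis3l2, -1.90 for the cell pair, 0.59 for shDis3l2 EVs and 0.23 for Dis3l2r. With totals of all table rows these were -8.75, -5.96, -2.27, 0.52 and 0.35, and 0.22 for D389N. With totals of named nuclear-coded tRNAs they were -11.47, -9.22, -1.60, 0.65 (Dis3l2r) and 0.32 (D389N). Without the most abundant cell transcript they were -9.25, -7.09, -1.61, 0.54, 0.62 and 0.30. With TMM, EVs against cells stood at -9.27 and -6.73. In EVs against cells, leaving out 1 library at a time left the median of the 8 between -8.72 and -6.49 and kept 8 of 8 called. In the 4 parental libraries, where the Dis3l2 class is the line and so pairs EVs with cells, the median was -7.58 with 8 of 8 lower. The labels give no replicate number to pair by. The low members had 156 to 365 counts in an EV library, which limits what their ratios can show, and with 1 library a group no difference between single libraries can be set against a replicate spread.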
